A study of Mus musculus with 19 samples.

Results

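The genes described here are 10 cell-cycle brakes of the mouse: the Cip/Kip inhibitors Cdkn1a, Cdkn1b and Cdkn1c, the Ink4 inhibitors Cdkn2a, Cdkn2b, Cdkn2c and Cdkn2d, the tumour suppressor Trp53 with its antagonist Mdm2, and Rb1. They were listed by name, and all 10 were found among the 34807 genes of the deposited count table. They were measured by RNA-seq in 15 skin tumours and 4 normal skin samples. Tumours were induced by BRAFV600E, an activated kinase of the MAPK pathway, after Cre recombination, and the labels call them squamous cell carcinoma. In the Ivl tumours (n = 6) CreERT2 was driven by the promoter of Ivl, a gene of differentiation-committed cells, and recombination was induced with topical tamoxifen. In the K5 tumours (n = 5) and the K14 tumours (n = 4) it was driven by the promoters of Krt5 and Krt14, keratins of the basal layer, and induced with 4-hydroxytamoxifen. Per the labels, induction was at 7 to 20 weeks of age and all samples came from females, whereas the study's methods give a narrower age range and mice of either sex; the strain was C57BL/6J. Normal skin (n = 4) was wild type, without a BRAFV600E allele listed. Ivl tumours appeared later than K5 and K14 tumours and at several body sites, so latency, site and inducing agent cannot be told apart from the Cre driver. The labels do not say whether each library came from a separate mouse, so p-values measure only the spread between samples.

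Progression from G1 into S phase depends on cyclin-dependent kinases, which phosphorylate Rb proteins and so release E2F transcription factors. Ink4 proteins bind CDK4 and CDK6, while Cip/Kip proteins bind a wider set of cyclin-CDK complexes. The Cdkn2a locus makes both p16Ink4a, an Ink4 inhibitor, and p19Arf, which sequesters Mdm2, the ubiquitin ligase that keeps p53 low. Strong MAPK signalling is known to raise several of these inhibitors, and in some cells to bring on senescence, a lasting arrest in which the cells go on secreting inflammatory factors. The comparisons ask how the genes of this circuit differed between each kind of tumour and normal skin, and between tumours begun in different epidermal cells.

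Library totals ran from 45715309 to 72609771 counts. The deposited counts had been adjusted by the authors for a sequencing batch, and 1 set of 4 libraries stood apart in them. For Ivl tumours 1, 2 and 3 and K5 tumour 1, the mean CPM (counts scaled to a common library size) of the set came to within 0.1, on the log2 scale, of the mean CPM of the remaining 15 for 96.6% of 13954 genes, against 64.1% for the next of 3876 possible sets. Results are therefore also given for the 15 libraries outside this set. Levels below are CPM scaled by TMM, a method that assumes most genes do not change, with factors of 1.43 to 1.66 in skin and 0.81 to 1.15 in tumours. Scaling mattered here. With TMM the median log2 fold change of all 32031 genes tested was -0.46 in Ivl tumours and -0.60 in K5/K14 tumours, and with plain library totals it was -1.13 and -1.40. Basal keratinocyte markers summed to 10700 to 58600 CPM in Ivl tumours, 42800 to 66500 CPM in K5/K14 tumours and 3800 to 7770 CPM in skin. The sum of 6 skeletal muscle markers was 2800 to 12200 CPM in skin, up to 5890 CPM in Ivl tumours and up to 396 CPM in K5/K14 tumours. The spread in Ivl tumours lay largely in the set of 4. Basal sums were 10700, 37100 and 32400 CPM in Ivl tumours 1 to 3 and 50300, 58600 and 51500 CPM in Ivl tumours 4 to 6. Muscle sums were 4.5, 5890 and 2130 CPM, and 7.94, 7.82 and 363 CPM. RNA without a poly(A) tail also ran with the main comparison: of a list of 6 such RNAs 2 were measured, Rn7sk and Rn7s1, and they summed to 1380 to 2160 CPM in the 4 skin samples, 1240 and 814 CPM in Ivl tumours 2 and 3, and 2.23 to 16.2 CPM in the other 13 tumours, nearly all of it Rn7sk. Its part in the results was not tested. In such bulk samples, fewer cells of a type and less RNA per cell cannot be told apart, and the part of this difference in makeup in the results was not tested.

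Of the inhibitors and regulators, 6 were higher in both kinds of tumour than in skin with TMM scaling: Cdkn1a, Cdkn2a, Cdkn2b, Cdkn2d, Trp53 and Mdm2. In Ivl tumours these 6 of 10 genes were raised and 0 lowered, where 20.4% of all genes tested were raised and 15.5% lowered. In K5/K14 tumours the same 6 were raised and 2 were lowered, Cdkn1b and Cdkn1c, where 23.2% of all genes were raised and 38.9% lowered (edgeR quasi-likelihood test, adjusted p under 0.05). With TMM every tumour lay above every skin sample for those 6 genes in both comparisons, a separation in either direction that 22.2% of all genes showed for Ivl tumours and 41.4% for K5/K14 tumours. Only Cdkn1a and Cdkn2a kept both calls under library totals, and Cdkn2b kept that of the K5/K14 tumours; Cdkn2d was then called in neither, and Trp53 and Mdm2 changed sign. With library totals the separation itself held in both for Cdkn1a alone of the 6, and for Cdkn2a in K5/K14 tumours. In Ivl tumours 2 of the 10 genes then did not overlap skin, Cdkn1a and Cdkn1b, where 24.5% of all genes did not. In K5/K14 tumours 6 of the 10 did not overlap skin, where 50% of all genes did not, and 4 of those 6 lay below skin: Cdkn1b, Cdkn1c, Cdkn2c and Rb1. RNA without a poly(A) tail, as above, was higher in every skin sample than in any tumour, and both comparisons share the skin samples.

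**Figure D1:**
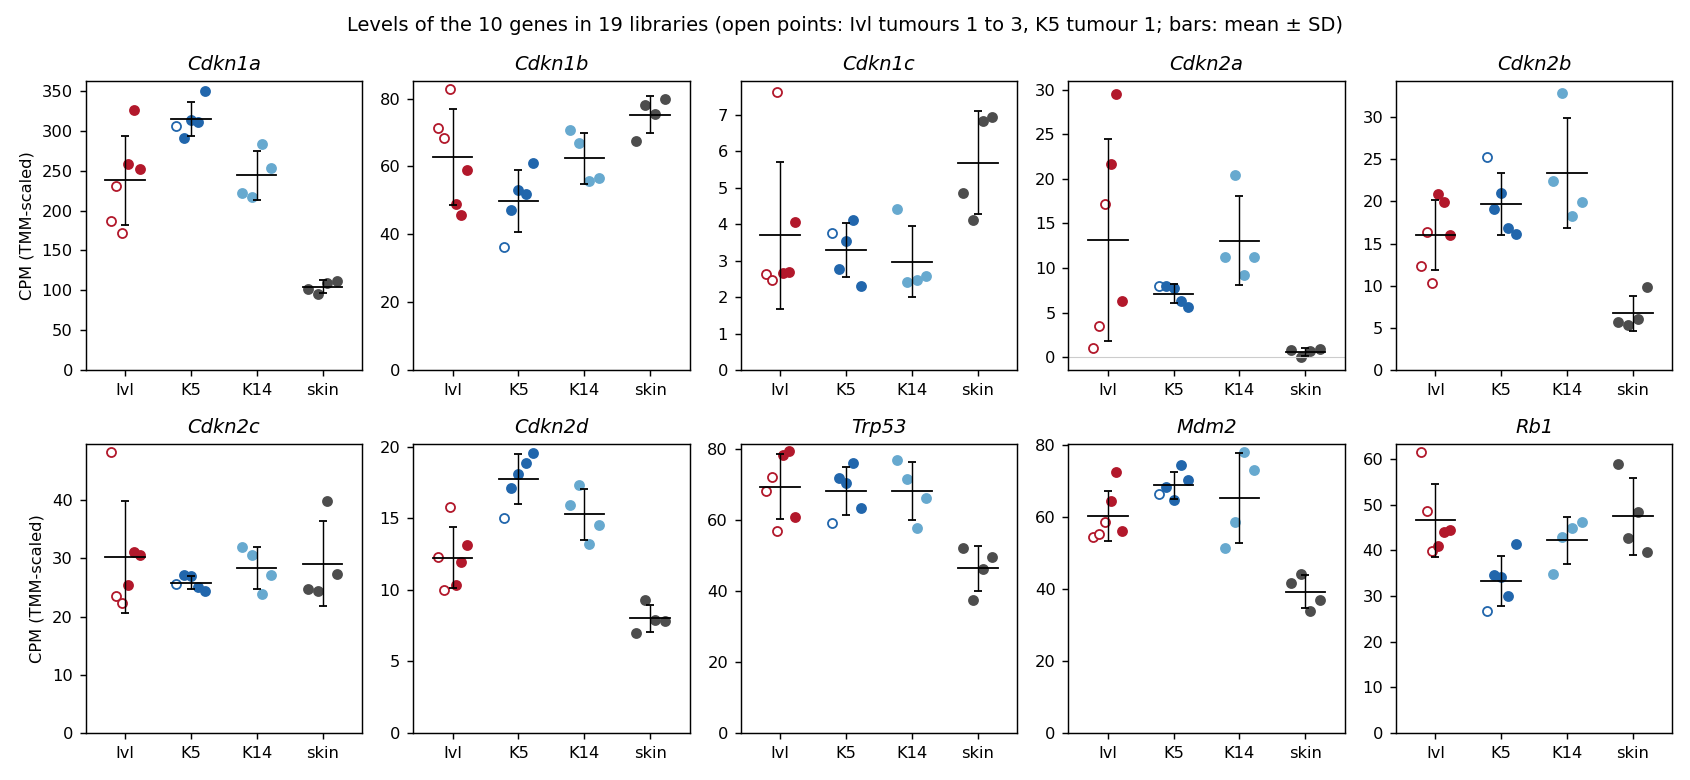
Each panel plots the TMM-scaled CPM of 1 gene in 19 libraries, by group, with the mean and SD as black bars and open points for Ivl tumours 1 to 3 and K5 tumour 1. Cdkn1a, Cdkn2a, Cdkn2b, Cdkn2d, Trp53 and Mdm2 have every tumour above every skin sample, while Cdkn1b, Cdkn1c, Cdkn2c and Rb1 overlap.

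Cdkn1a, on chromosome 17 at 29090976 to 29100727 (GRCm38, plus strand), encodes p21, which inhibits cyclin-CDK complexes and is the classical target of p53. RefSeq (GRCm38.p6) lists more than 1 start for it, and the window around the upstream start is shown because it holds the 1 match to a p53 response element in the 11 windows searched, which covered 8 of the 10 genes. Capitals mark that element, bases 200 to 219 of the 300, which run from 250 before the start to 50 after it.
Cdkn1a, upstream start, chr17:29090729-29091028, plus strand: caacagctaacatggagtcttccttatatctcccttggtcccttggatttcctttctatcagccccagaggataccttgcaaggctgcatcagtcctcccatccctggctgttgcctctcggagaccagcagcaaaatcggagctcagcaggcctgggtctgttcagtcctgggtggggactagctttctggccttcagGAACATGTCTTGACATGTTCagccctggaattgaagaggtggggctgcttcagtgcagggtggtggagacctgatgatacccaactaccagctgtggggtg
The element was searched on both strands as 20 bases in a pair of p53 decamers, with 1 mismatch allowed and the core C and G of each decamer required, and 22 of 32851 promoter windows held it (0.067%). A match is a description of the letters, and p53 binding was not measured.

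Among the 10 genes Cdkn1a had the highest level per length in every group, with a mean of 66.9 CPM per kb of exon in Ivl tumours, 79.7 in K5/K14 tumours and 29.5 in skin. Its CPM in Ivl tumours ran from 172 over a median of 242 to 326. In K5 tumours it was 306, 291, 313, 311 and 350, in K14 tumours 222, 218, 283 and 253, and in skin 102, 95.6, 110 and 112. Skin was the lowest group and had the smallest SD in CPM. Relative to the mean, K5 tumours varied least, with an SD of 6.84% of the mean against 7.27% in skin. All K5 tumours were above all K14 tumours. Against skin the log2 fold change was 1.18 ± 0.17 (SE) in Ivl tumours (adjusted p = 3.3e-05) and 1.43 ± 0.17 in K5/K14 tumours (adjusted p = 2.2e-06), or 2.27-fold and 2.70-fold. It was called in all 28 alternatives for Ivl tumours and all 30 for K5/K14 tumours, down to log2 fold changes of 0.455 and 0.615 with library totals. Within the 15 libraries outside the set the log2 fold changes were 1.41 in Ivl and 1.42 in K5/K14 tumours. Ivl tumours 1 to 3 held 187, 230 and 172 CPM, and Ivl tumours 4 to 6 held 258, 326 and 253 CPM. A gene annotated on the opposite strand, AC167363.2, shares 273 bases of the exons of Cdkn1a (7.68%). The strand setting of the counting is not given in the sources used here.

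Cdkn1b, at chromosome 6, 134920401 to 134925513, encodes p27, an inhibitor abundant in resting cells. It moved the other way from Cdkn1a, with 67.6, 78.1, 75.5 and 79.9 CPM in skin and 36.3, 47.1, 53.2, 52.0 and 60.9 CPM in K5 tumours. K14 tumours held 70.7, 66.95, 55.6 and 56.5 CPM, and Ivl tumours 45.8 to 82.8 CPM with a median of 63.6. All K5 tumours lay under all skin samples, while K14 and Ivl tumours reached into the range of skin. It fell by 0.44 ± 0.16 on the log2 scale in K5/K14 tumours (adjusted p = 0.021), and that call was lost without normal skin 2, without normal skin 4 and with K14 tumours alone (adjusted p from 5.4e-05 to 0.21 over the 30 alternatives). In Ivl tumours the log2 difference was -0.26 (95% interval -0.62 to 0.09, adjusted p = 0.21). The libraries that stood apart mattered for this gene: Ivl tumours 1 to 3 held 71.3, 68.4 and 82.8 CPM and Ivl tumours 4 to 6 held 49.0, 45.8 and 58.9 CPM. Within the 15 libraries outside the set it fell by 0.55 ± 0.14 in Ivl tumours (adjusted p = 0.0036; 0.0036 to 0.38 over the 28 alternatives), and the log2 difference from K5/K14 tumours turned from 0.18 to -0.18, called in neither.

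Cdkn1c, at chromosome 7, 143458339 to 143461050, encodes p57, the imprinted member of the family, and was the lowest of the 10 in tumours, at 1.81 CPM per kb in Ivl and 1.55 CPM per kb in K5/K14 tumours. Skin held 4.87, 4.13, 6.82 and 6.93 CPM. The 9 K5/K14 tumours ran from 2.31 to 4.42 CPM, and 5 of 6 Ivl tumours from 2.48 to 4.06 CPM, with Ivl tumour 3 at 7.63 CPM, above all skin samples. In K5/K14 tumours it fell by 0.85 ± 0.28 on the log2 scale (adjusted p = 0.015), a call lost without normal skin 3, without normal skin 4 and with K5 tumours alone (adjusted p up to 0.0522). In Ivl tumours the difference was -0.62 (95% interval -1.27 to 0.03, adjusted p = 0.12), and without Ivl tumour 3 it was -0.99 (adjusted p = 0.0037; 0.0037 to 0.22 over the 28 alternatives). Fibroblast markers moved beside it in part: the sum of 6 was 10700 CPM in Ivl tumour 3 against 1460 to 3890 CPM in the other Ivl tumours, and 13200 and 18200 CPM in normal skin 3 and 4 against 3280 and 815 CPM in normal skin 1 and 2. K5 tumour 1, at 14900 CPM of these markers, held 3.75 CPM of Cdkn1c. Their part in the result was not tested. An antisense gene, Gm44732, shares 625 bases of its exons (30.65%).

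The Ink4 inhibitors Cdkn2a and Cdkn2b are neighbours on the minus strand of chromosome 4, at 89274471 to 89294653 and 89306299 to 89311039. Windows are shown for the 3 starts of this locus because the deposited count of Cdkn2a joins transcripts from both of its own starts, and so cannot separate p16Ink4a from p19Arf. Capitals mark an E2F motif (TTTCCCGC) and GC boxes (GGGCGG), searched on both strands; in these windows the marked motifs do not overlap.
Cdkn2a, Arf start, chr4:89294570-89294869, minus strand: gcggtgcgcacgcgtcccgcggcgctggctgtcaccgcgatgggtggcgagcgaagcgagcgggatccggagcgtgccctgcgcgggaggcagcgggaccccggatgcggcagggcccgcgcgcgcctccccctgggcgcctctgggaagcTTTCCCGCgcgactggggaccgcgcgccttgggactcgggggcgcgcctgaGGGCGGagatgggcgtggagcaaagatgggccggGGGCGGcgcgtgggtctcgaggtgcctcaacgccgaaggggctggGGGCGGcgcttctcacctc
Cdkn2a, Ink4a start, chr4:89282143-89282442, minus strand: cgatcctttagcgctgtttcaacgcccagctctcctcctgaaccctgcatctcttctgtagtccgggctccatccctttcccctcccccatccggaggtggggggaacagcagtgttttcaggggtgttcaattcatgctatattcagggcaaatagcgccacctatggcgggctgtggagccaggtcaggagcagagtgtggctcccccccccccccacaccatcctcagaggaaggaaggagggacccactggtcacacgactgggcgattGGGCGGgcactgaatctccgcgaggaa
Cdkn2b, chr4:89310983-89311282, minus strand: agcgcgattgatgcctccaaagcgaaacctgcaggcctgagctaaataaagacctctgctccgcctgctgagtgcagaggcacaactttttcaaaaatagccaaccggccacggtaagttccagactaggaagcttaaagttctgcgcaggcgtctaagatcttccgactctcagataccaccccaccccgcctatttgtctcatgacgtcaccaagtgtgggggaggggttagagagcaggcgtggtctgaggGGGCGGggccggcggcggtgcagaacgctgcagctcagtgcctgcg
The Arf window holds the E2F motif at bases 152 to 159 and 3 GC boxes, and the Ink4a and Cdkn2b windows hold 1 GC box each. Of all 32851 windows, 1.07% hold TTTCCCGC and 35.7% hold GGGCGG, so a GC box sets these starts apart little. TTTGGCGC (0.514% of windows), the AP-1 motif TGANTCA (7.81%) and TATAAA (13.6%) were searched too and are not in these 3 windows or that of Cdkn1a.

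Cdkn2a changed most of the 10 genes and varied most between tumours. Skin held 0.738, 0, 0.647 and 0.956 CPM, the 0 being no count at all in normal skin 2, where 3 counts would be 0.0337 CPM. Ivl tumours 1 to 6 held 1.01, 3.48, 17.2, 21.6, 29.5 and 6.28 CPM. K5 tumours held 7.94, 7.95, 7.74, 6.27 and 5.64 CPM, and K14 tumours 11.2, 20.4, 9.27 and 11.3 CPM. With TMM every tumour was above every skin sample, but Ivl tumour 1 only just, and with library totals it was under 2 of them, at 0.97 CPM against 1.23 CPM in normal skin 1 and 1.36 CPM in normal skin 4. The Ivl group spanned the whole range of the tumours, with an SD of 86.1% of its mean against 15.2% in K5 tumours. Ivl tumours 1 to 3 and K5 tumour 1 form the set that stood apart. Outside it the SD was 61.7% of the mean in Ivl tumours (n = 3) and 16.3% in K5 tumours (n = 4). Per length Cdkn2a was the lowest of the 10 genes in skin, at 0.499 CPM per kb, and sixth in Ivl tumours at 11.3 CPM per kb, level with Cdkn2c.

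Against skin the log2 fold change of Cdkn2a was 4.49 ± 0.98 in Ivl tumours (adjusted p = 0.0016) and 4.05 ± 0.93 in K5/K14 tumours (adjusted p = 0.0014). Both calls held in every alternative, with fold changes from 3.77 to 5.02 and from 3.27 to 4.47, the lowest of the first with library totals. Cdkn2a is on the study's own list of genes raised in both kinds of tumour, which was chosen on these samples, so this is not independent evidence. Between tumours the difference was not detectable: Ivl exceeded K5/K14 tumours by 0.44 (95% interval -0.90 to 1.77, adjusted p = 0.74). That difference was 0.94 within the 15 libraries outside the set (95% interval -0.52 to 2.40) and ran from 0.02 to 0.68 when 1 library was left out, the call missing in all.

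Cdkn2b encodes p15, the Ink4 inhibitor best known as a target of TGF-beta signalling. Skin held 5.72, 5.41, 6.02 and 9.82 CPM, Ivl tumours 10.3 to 20.8 CPM with a median of 16.2, K5 tumours 16.1 to 25.3 CPM and K14 tumours 22.4, 32.8, 18.2 and 20.0 CPM. Its highest skin sample, normal skin 4, came close to the lowest tumour, Ivl tumour 3, without overlap, though with library totals skin and tumours overlapped. It rose by 1.24 ± 0.24 on the log2 scale in Ivl tumours (adjusted p = 4.0e-04) and by 1.66 ± 0.23 in K5/K14 tumours (adjusted p = 1.1e-05). With library totals the first became 0.528 and was not called (adjusted p = 0.0535; 3.8e-05 to 0.0535 over the 28 alternatives), and the second 0.872, still called. From skin to tumour, then, Cdkn2b went up a little over 2-fold to 3-fold (2.37-fold and 3.16-fold) from a level at which skin already expressed it, while Cdkn2a went from near 0.

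Cdkn2d, at chromosome 9, 21288410 to 21291407, encodes p19Ink4d, and Cdkn2c, on chromosome 4 at 109660876 to 109667189, encodes p18. Cdkn2d held 6.99, 9.31, 7.91 and 7.79 CPM in skin, 9.97 to 15.8 CPM in Ivl tumours, 15.01 to 19.6 CPM in K5 tumours and 13.2 to 17.3 CPM in K14 tumours. No tumour overlapped skin on this scale, and K5/K14 tumours tended to the upper end. With TMM it rose by 0.61 ± 0.15 in Ivl tumours (adjusted p = 0.0039) and by 1.06 ± 0.15 in K5/K14 tumours (adjusted p = 1.0e-05), whereas with library totals these were -0.07 and 0.25, neither called. Cdkn2c held 22.3 to 48.4 CPM in Ivl tumours, 23.9 to 31.9 CPM in K5/K14 tumours and 24.4 to 40.0 CPM in skin, all overlapping. Its log2 difference from skin was 0.05 in Ivl tumours (95% interval -0.34 to 0.44) and -0.11 in K5/K14 tumours (95% interval -0.47 to 0.25), and neither was called, though with library totals both were lower and called (-0.654 and -0.908; adjusted p from 2.3e-04 to 0.98 over both sets of alternatives).

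Trp53, at chromosome 11, 69580359 to 69591873, encodes p53, which is controlled mostly through the stability of the protein, and these data measure RNA only. It was the second highest gene per length in Ivl and K5/K14 tumours, at 17.2 and 16.9 CPM per kb, and held 11.5 CPM per kb in skin. Skin samples held 52.1, 37.5, 46.3 and 49.7 CPM, Ivl tumours 57.1 to 79.5 CPM with a median of 70.3, K5 tumours 59.1 to 76.3 CPM and K14 tumours 57.8 to 77.1 CPM. All 3 tumour groups shared 1 range, above that of skin on this scale. With TMM Trp53 rose by 0.58 ± 0.12 in Ivl and 0.56 ± 0.12 in K5/K14 tumours (adjusted p = 0.0012 and 5.8e-04), but with library totals the log2 differences were -0.13 and -0.25, not called. Its log2 fold change less that of the median gene was 1.04 with TMM and 1.0 with library totals in Ivl tumours. In K5/K14 tumours these were 1.16 and 1.15. A change of scaling moves all genes by about the same amount. The likeness of these values was thus fixed beforehand and is no check on the rise.

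Mdm2, at chromosome 10, 117688875 to 117710758, is both the antagonist of p53 and one of its targets. It held 41.7, 44.3, 34.0 and 37.1 CPM in skin, 54.6 to 72.6 CPM in Ivl tumours, 64.8 to 74.5 CPM in K5 tumours and 51.6 to 78.2 CPM in K14 tumours, with no overlap between tumours and skin on this scale. With TMM it rose by 0.62 ± 0.12 and 0.78 ± 0.12 in Ivl and K5/K14 tumours (adjusted p = 6.6e-04 and 2.7e-05), and with library totals the differences were -0.09 and -0.05, not called. Above the median gene it stood at 1.08 and 1.04 in Ivl tumours and at 1.38 and 1.35 in K5/K14 tumours. As for Trp53, taking off the median removes most of the scaling, so these values are no check on the rise.

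Rb1, at chromosome 14, 73183673 to 73325822, encodes the retinoblastoma protein. Skin held 59.0, 42.8, 48.4 and 39.7 CPM, Ivl tumours 39.8 to 61.6 CPM, K5 tumours 26.8, 34.6, 34.2, 30.0 and 41.4 CPM, and K14 tumours 34.8 to 46.2 CPM. K5 tumours were the lowest group, although its highest sample passed the lowest of skin. The log2 difference was -0.03 in Ivl tumours (95% interval -0.37 to 0.32, adjusted p = 0.90) and -0.35 in K5/K14 tumours (95% interval -0.66 to -0.03), which just missed the threshold (adjusted p = 0.0508) and was called in 15 of 30 alternatives. With library totals both were lower and called, at -0.736 and -1.17. Exons of Rcbtb2 and Lpar6 on the opposite strand share 488 and 408 of its exon bases (8.11% and 6.78%).

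**Figure D2:**
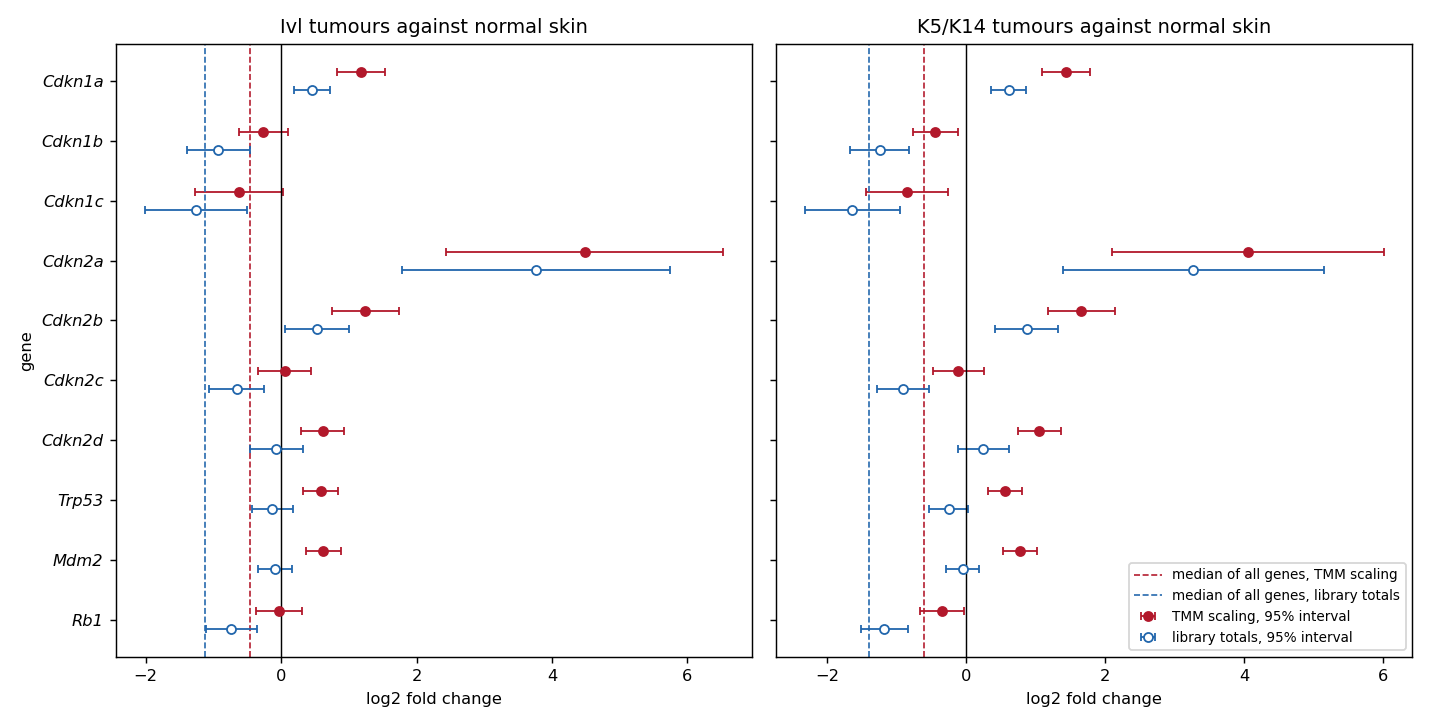
Points are log2 fold changes of each gene against normal skin with 95% intervals, filled for TMM scaling and open for library totals, and dashed lines mark the median of all genes under each. The open points lie to the left of the filled ones by about as much as the dashed lines do, so that Trp53 and Mdm2 pass from above 0 to below it while Cdkn1a, Cdkn2a and Cdkn2b stay above.

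Ratios of 2 genes within a library do not depend on scaling. The 4 given here were chosen after the values had been seen, so they are a description, and no p-value is given for them. Counts of Cdkn1a were 2.27 times those of Trp53 in skin, 3.37 times in Ivl tumours and 4.12 times in K5/K14 tumours (geometric means). The log2 ratio was 1.18 ± 0.16 (SD) in skin, 1.75 ± 0.24 in Ivl tumours and 2.04 ± 0.32 in K5/K14 tumours, and the highest skin sample, at 1.35, lay under the lowest tumour, at 1.45. Cdkn1a to Cdkn1b averaged 0.48 in skin, 1.92 in Ivl and 2.36 in K5/K14 tumours on the log2 scale, and no tumour overlapped skin. The order of the tumour groups depended on the set that stood apart. Within the 15 libraries outside it Cdkn1a to Cdkn1b averaged 2.44 in Ivl (n = 3) and 2.27 in K5/K14 tumours (n = 8). Cdkn1a to Trp53 averaged 1.93 and 2.0 there.

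The log2 ratio of Mdm2 to Trp53 averaged -0.24 ± 0.32 in skin, -0.20 ± 0.16 in Ivl tumours and -0.02 ± 0.30 in K5/K14 tumours, and all groups overlapped. Cdkn2a to Cdkn2b was at most -2.94 in any skin sample and ran from -1.67 to -0.69 in K5/K14 tumours. In Ivl tumours this ratio ran from -3.60 to 0.74 and overlapped skin. Its mean in skin depends on the 0.5 counts added, since normal skin 2 had no count of Cdkn2a.

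**Figure D3:**
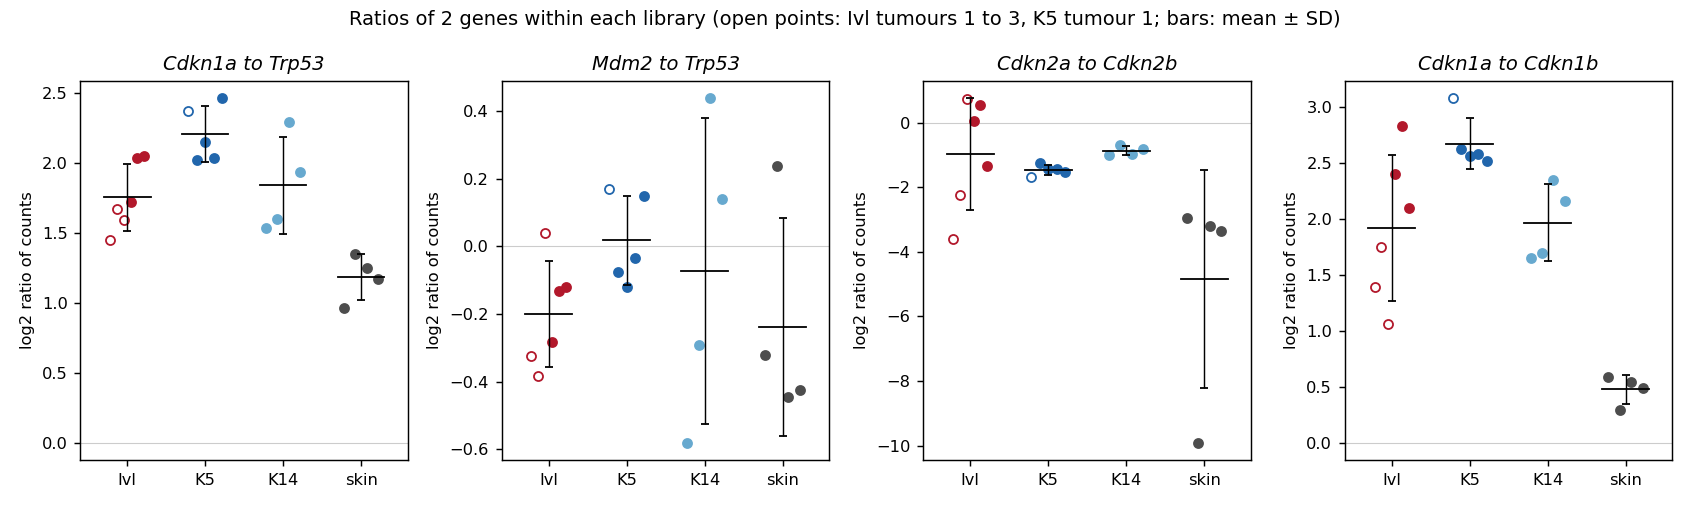
Each panel plots the log2 ratio of the counts of 2 genes in each of 19 libraries, with the mean and SD per group as black bars and open points for Ivl tumours 1 to 3 and K5 tumour 1. Cdkn1a gains on Trp53 and on Cdkn1b in every tumour, Mdm2 to Trp53 overlaps between groups, and 1 skin sample without a Cdkn2a count lies far below in the third panel.

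Between Ivl and K5/K14 tumours 0 of the 10 genes passed the threshold, where 2.36% of all genes did (0.397% to 4.15% when 1 library was left out); 3 had an unadjusted p under 0.05, and DESeq2 called 1. With library totals it was again 0 of 10, where 2.69% of all genes were called. The largest tested difference was that of Cdkn2d, lower in Ivl tumours by -0.44 on the log2 scale (95% interval -0.70 to -0.18, adjusted p = 0.061). It was called in 5 of 28 alternatives, among them DESeq2, and without Ivl tumour 3, where the difference was -0.54 (adjusted p = 0.035; 0.0035 to 0.22 over all). The others with an unadjusted p under 0.05 were Cdkn2b at -0.41 (95% interval -0.81 to -0.02) and Rb1 at 0.32 (95% interval 0.04 to 0.60). Within the 15 libraries outside the set Cdkn2d stood at -0.51 (95% interval -0.81 to -0.22, adjusted p = 0.13). Cdkn2b stood there at -0.14 (95% interval -0.59 to 0.32) and Rb1 at 0.16 (95% interval -0.14 to 0.46). Over all 19 libraries the intervals for Trp53 and Mdm2 were narrow, from -0.18 to 0.23 and from -0.37 to 0.05, and for Cdkn2a wide. Of K5 against K14 tumours none was called either, as edgeR called 0 of 32031 genes (0%; 1945 at an unadjusted p under 0.05; DESeq2 called 174). Cdkn1a and Cdkn2a did not overlap between these groups, 2 of 10 genes where 4.44% of all genes did not. Cdkn1a was higher in K5 tumours by 0.37 (95% interval 0.04 to 0.69, adjusted p = 0.78) and Cdkn2a lower, at -0.88 (95% interval -2.58 to 0.83, adjusted p = 0.90).

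Within the 15 libraries outside the set, the 6 genes raised with TMM were raised again in both comparisons, where 22.2% of all genes were raised in Ivl and 23.9% in K5/K14 tumours. Cdkn1b and Cdkn1c were lowered in both, joined by Rb1 in K5/K14 tumours (adjusted p = 0.0496), where 32.7% and 42.3% of all genes were lowered. Between Ivl and K5/K14 tumours, and between K5 and K14 tumours, 0 of 10 genes were called there, where 0.41% and 0.0532% of all genes were; 1 and 2 of the 10 had an unadjusted p under 0.05.

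Likeness across the 15 tumours was described by Pearson's r of log2 CPM over 15366 genes, with no test, and such values share scaling and tissue makeup. The genes most like Cdkn1a were Junb, a subunit of AP-1 (r = 0.953), and Hbegf, an EGF receptor ligand (r = 0.934). Cdkn2a was most like Car12, a carbonic anhydrase (r = 0.874), and Gm5724 (r = 0.828), and Cdkn2b most like Myo19 (r = 0.901) and Rabep2 (r = 0.895). Spearman's rank correlations were 0.929 and 0.95 for Cdkn1a, 0.786 and 0.718 for Cdkn2a, and 0.782 and 0.786 for Cdkn2b. For each gene the 2 highest r were picked from all genes compared, a choice that by itself yields high values. The tumours include the 4 libraries that stood apart.

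The rest of the circuit was taken from 9 lists, whose counts are to be read against all genes. With TMM 20.4% of all genes were raised and 15.5% lowered in Ivl tumours, and 23.2% and 38.9% in K5/K14 tumours. With library totals these were 8.95% and 48.3%, and 10.1% and 64.5%. Of 30 p53 targets, 12 were raised and 0 lowered in Ivl tumours, and 14 were raised and 6 lowered in K5/K14 tumours. The list median was 0.39 and 0.33, where that of all genes was -0.46 and -0.60, and with library totals the counts turned to 6 raised and 12 lowered, and 7 and 16. The raised shares of 40.0% and 46.7% with TMM thus stood above those of all genes, and the lowered shares of 40.0% and 53.3% with library totals below them. Pmaip1 and Bax, which promote apoptosis, led the raised side: Pmaip1 rose from 5.11 ± 0.86 CPM (SD) in skin to 35.0 ± 18.9 in Ivl and 72.4 ± 22.9 in K5/K14 tumours. Bax rose by 1.35 and 1.58 on the log2 scale (adjusted p = 2.2e-05 and 1.7e-06). The lowered side was led by Eda2r, a member of the TNF receptor family, and Trp53inp1, which fell by 1.69 and 1.51 in K5/K14 tumours (adjusted p = 1.7e-04 and 2.4e-04).

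Those 2 targets were also called between the tumours. Eda2r averaged 6.92 ± 2.42 CPM in Ivl and 2.55 ± 1.27 CPM in K5/K14 tumours, a log2 difference of 1.44 (adjusted p = 0.020), and Trp53inp1 57.0 ± 21.5 against 26.4 ± 12.3 CPM, a difference of 1.11 (adjusted p = 0.035). Pmaip1 went the other way, at -1.05 (adjusted p = 0.049). The 9 lists held 161 genes. Of all genes tested 2.36% were called in this comparison (0.397% to 4.15% when 1 library was left out). Of all 9 lists 3 more genes were called between the tumours: Hipk2, a kinase that phosphorylates p53 (0.91), Tk1, thymidine kinase (-0.73), and the transcription factor Bhlhe40 (-0.72). Within the 15 libraries outside the set 0 of these 6 were called, with Hipk2 at 0.25 and Pmaip1 at -0.50, and adjusted p from 0.083 to 0.54. Leaving out 1 library at a time, Eda2r kept its call in all 19 fits and the other 5 in 5 to 11 of 19.

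Among 15 regulators and relatives of p53, 7 were raised and 2 lowered in Ivl tumours and 8 raised and 4 lowered in K5/K14 tumours, with medians of 0.41 and 0.36. With library totals 0 were raised, and 7 and 9 were lowered. The raised shares were 46.7% and 53.3% with TMM (all genes 20.4% and 23.2%), and the lowered ones 46.7% and 60.0% with library totals (all genes 48.3% and 64.5%). Ppp1r13l, an inhibitor of p53, rose by 0.93 and 1.05 with TMM and stood at 0.20 and 0.22 with library totals. Ppm1d, a phosphatase that dampens p53 signalling, rose by 0.53 and 0.66 with TMM and changed sign with library totals, at -0.19 and -0.15. Hipk2 and Atm, the kinase of the DNA damage response, fell in K5/K14 tumours by 1.79 and 1.01 (adjusted p = 7.3e-06 and 5.7e-04). Mdm4, the partner of Mdm2 in holding p53 down, fell there by 0.67 ± 0.21 (adjusted p = 0.011), opposite to Mdm2, a call lost without normal skin 2 (adjusted p = 0.061), and was -0.48 in Ivl tumours (adjusted p = 0.11), where it was called without Ivl tumour 2 or 3.

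The machinery that the inhibitors restrain was raised beside them with TMM. Of 13 cyclins and CDKs, 10 were raised and 1 lowered in Ivl tumours, and 11 raised and 1 lowered in K5/K14 tumours, while 1 was raised in each with library totals and 1 and 4 were lowered. Ccne1, cyclin E1, rose from 5.14 ± 2.28 CPM in skin to 17.2 ± 5.24 in Ivl and 16.0 ± 3.85 in K5/K14 tumours and was higher under both scalings. Cdk4, the kinase bound by Ink4 proteins, rose by 0.87 in both (adjusted p = 1.5e-04 and 5.1e-05), and Ccnd1, cyclin D1, a target of MAPK signalling, by 1.21 and 1.06 (adjusted p = 0.0036 and 0.0034), though neither was called with library totals. Ccnd2, cyclin D2, fell from 235 ± 71.2 CPM in skin to 67.5 ± 10.2 CPM in K5/K14 tumours, by 1.80 on the log2 scale (adjusted p = 9.7e-05), and by 1.02 in Ivl tumours (adjusted p = 0.028), a call lost without Ivl tumour 4, 5 or 6 or normal skin 1 or 3.

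Of 15 replication genes driven by E2F, 12 were raised in Ivl and 14 in K5/K14 tumours and 0 lowered, with medians of 0.88 and 1.01; with library totals 2 were raised in each, and 0 and 2 lowered. Pcna, the sliding clamp, rose by 0.88 and 0.97 and Rrm2, a ribonucleotide reductase subunit, by 1.03 and 1.37. Mki67, the proliferation marker Ki-67, stood apart from them, at 377 ± 43.8 CPM in Ivl tumours, 275 ± 64.9 CPM in K5/K14 tumours and 309 ± 166 CPM in skin, with adjusted p of 0.38 and 0.55, though without normal skin 1 it was called in Ivl tumours at 0.67 (adjusted p = 0.044). In the list of 12 Rb relatives and E2F factors, 5 were raised and 0 lowered in Ivl tumours, and 5 raised and 3 lowered in K5/K14 tumours; with library totals these were 4 and 6, and 3 and 8. With TMM 41.7% were raised in each, and the 25.0% lowered in K5/K14 tumours compares with 38.9% of all genes. E2f4 and its partner Tfdp1 rose by 1.096 and 1.22 in Ivl and by 1.24 and 1.14 in K5/K14 tumours, while Rbl2, the p130 relative of Rb1, and E2f2 fell by 0.62 and 1.04 in K5/K14 tumours (adjusted p = 0.0063 and 0.0053). The fall of E2f2 rested on normal skin 1: without it E2f2 stood at -0.50 (adjusted p = 0.12). Normal skin 1 held the most hair follicle markers (2460 CPM) and the most melanocyte markers (356 CPM) of the skin samples. The part of such cells was not tested.

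The lists of genes that act on the inhibitors themselves differed from each other. Of 10 genes for the turnover of CDK inhibitors, 6 were raised and 1 lowered in Ivl and 6 raised and 0 lowered in K5/K14 tumours, against 1 and 4, and 1 and 8, with library totals. The 60.0% raised in each with TMM compares with 20.4% and 23.2% of all genes, and the 80.0% lowered in K5/K14 tumours with library totals with 64.5%. Cks1b, a cofactor in the destruction of p27, rose by 1.46 and 1.63 (adjusted p = 4.6e-05 and 5.9e-06) and stayed raised with library totals, while Cul4a rose by 0.47 and 0.57 with TMM and turned to -0.24 and -0.25 with library totals. Of 18 regulators of the Cdkn2a locus, 4 were raised and 0 lowered in Ivl, and 4 raised and 3 lowered in K5/K14 tumours, with medians of 0.01 and 0.09; with library totals 1 was raised in each, and 11 and 13 lowered. The raised share, 22.2% in each with TMM, was near that of all genes (20.4% and 23.2%). Id1 rose by 1.38 and 1.48. Eed, a Polycomb subunit, rose by 0.80 and 0.76 with TMM, and in K5/K14 tumours it was -0.06 with library totals. Cbx7 and Cbx8, Polycomb proteins that repress the locus, fell by 1.37 and 0.52 in K5/K14 tumours (adjusted p = 2.6e-04 and 0.015).

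The senescence-associated secreted factors held the largest list median, 1.61 in Ivl and 2.20 in K5/K14 tumours. Of these 35 genes 19 were raised and 1 lowered in Ivl tumours, and 25 raised and 3 lowered in K5/K14 tumours, and with library totals 14 and 5, and 21 and 6. Il1a, an inflammatory cytokine, rose from 3.01 ± 0.91 CPM in skin to 28.8 ± 14.8 in Ivl and 56.0 ± 24.1 in K5/K14 tumours, and Plau, the urokinase protease, rose by 1.51 and 2.20. Il6 was low, at 0.256 ± 0.028 CPM in skin, 0.97 ± 0.52 in Ivl and 1.35 ± 0.92 in K5/K14 tumours, and rose by 1.91 and 2.39 (adjusted p = 0.019 and 0.0023). Igfbp5 and Fgf2 fell in K5/K14 tumours by 2.56 and 1.51 (adjusted p = 0.0023 and 0.0014). Many of these factors are also made by inflamed skin and by immune cells, and neutrophil markers summed to 9.07 to 37.3 CPM in skin, 103 to 6580 in Ivl and 1590 to 6350 CPM in K5/K14 tumours, with Ly6g under 1 CPM in every library; S100a8 and S100a9 in this list are also made by keratinocytes, and the part of such cells was not tested.

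Of 13 cell markers used for senescence, 5 were raised and 1 lowered in Ivl, and 7 raised and 1 lowered in K5/K14 tumours, against 4 and 7, and 3 and 8, with library totals. The raised shares of 38.5% and 53.8% with TMM compare with 20.4% and 23.2% of all genes, and the lowered ones of 53.8% and 61.5% with library totals with 48.3% and 64.5%. Hmga2, a chromatin protein of embryonic and senescent cells, rose from 1.03 ± 0.50 CPM in skin to 27.8 ± 19.8 in Ivl and 52.3 ± 28.0 CPM in K5/K14 tumours, and Bhlhe40 rose by 1.21 and 1.93. Bcl2, which protects cells from apoptosis, fell by 0.84 and 1.37 (adjusted p = 0.029 and 2.2e-04), the first a call lost without Ivl tumour 1, 4, 5 or 6 or normal skin 1 or 2 and larger, at -1.28, without Ivl tumour 3. Lmnb1, lamin B1, whose loss is a usual mark of senescence, held 49.4 ± 29.7 CPM in skin, 67.2 ± 7.85 in Ivl and 52.5 ± 9.58 CPM in K5/K14 tumours, with log2 differences of 0.44 and 0.09 that were not called (adjusted p = 0.17 and 0.76). Without normal skin 1 both were called, at 0.89 and 0.54, whereas with library totals Lmnb1 turned to -0.30 and -0.76, the second called.

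**Figure D4:**
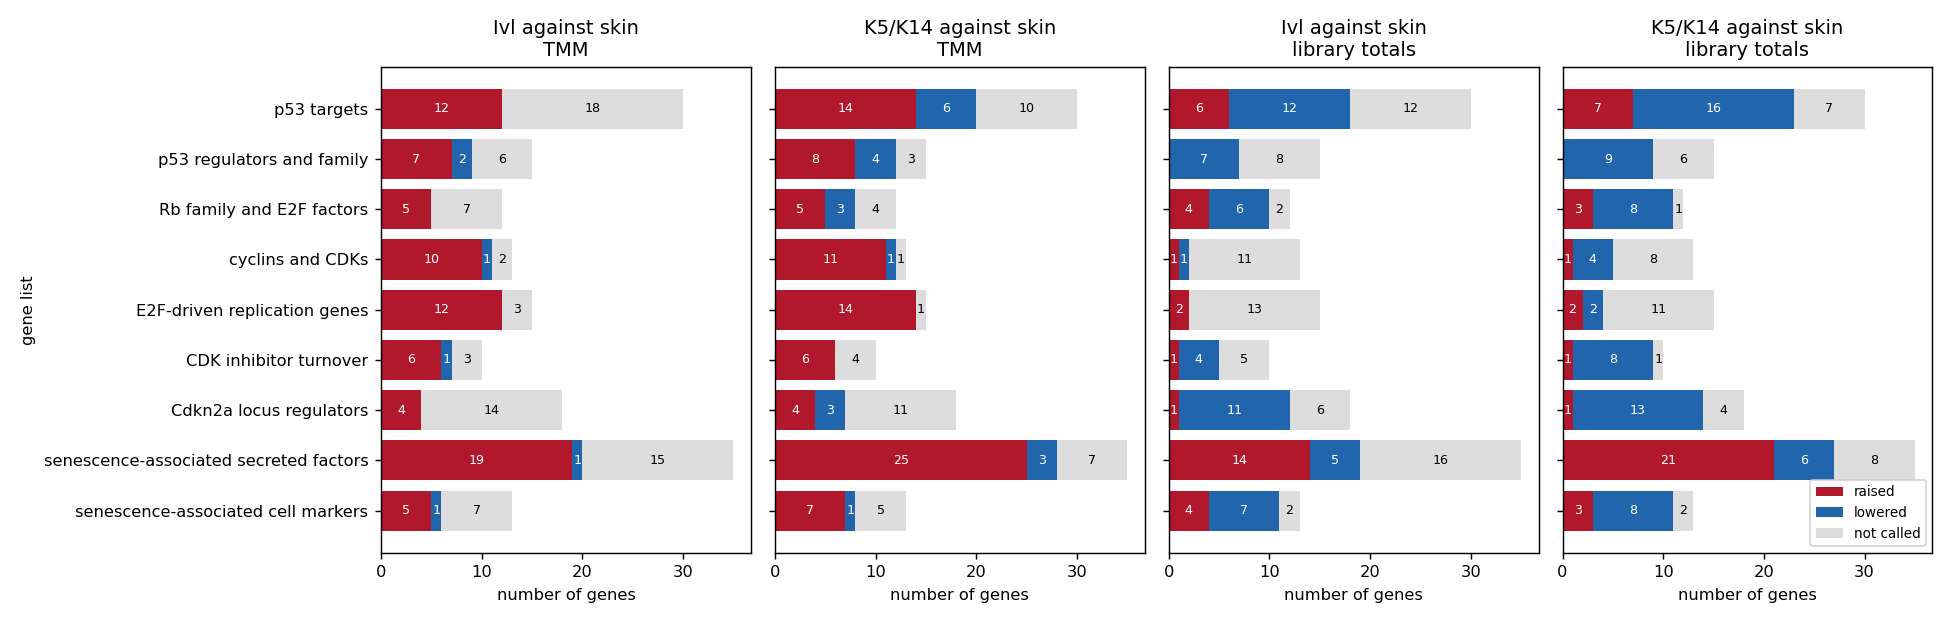
Bars give how many genes of each of 9 lists were raised, lowered or not called against normal skin, for Ivl and K5/K14 tumours with TMM scaling (left pair) and with library totals (right pair). Of the 35 secreted factors, 25 with TMM and 21 with library totals are raised in K5/K14 tumours, and 19 and 14 in Ivl tumours. The 15 p53 regulators go from 8 raised to 0 in K5/K14 tumours and from 7 to 0 in Ivl tumours.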

How the data were processed

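RNA from 15 BRAFV600E tumours and 4 normal skin samples was sequenced as poly(A) libraries made with a strand-specific kit. Per the labels and the study's methods, the authors trimmed reads with Trim Galore (quality by FastQC 0.11.8), aligned them with HISAT2 2.1.0 to GRCm38 and counted genes with featureCounts (Subread 1.6.3). The authors then adjusted the table for a batch with ComBat-seq, so the deposited values are estimated counts; which library was in which batch is not given in the sources used here. All values were whole numbers, and 34694 of 34807 identifiers matched the GENCODE annotation of GRCm38 used here for positions.

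Genes with at least 5 counts in 1 library (32031) were fitted with edgeR 4.0.16 (quasi-likelihood test, two-sided, TMM scaling, robust) in R 4.3.3 over all 19 libraries, with K5 and K14 merged as in the study, and p-values were adjusted by Benjamini-Hochberg over all genes tested; a gene was called at an adjusted p under 0.05. All 10 genes passed the filter. K5 and K14 tumours were compared in a fit with 4 groups. Intervals are 95% intervals of the fit. Fits were tested on simulated data in which a small part of the genes was changed in K5/K14 tumours, as many up as down. Such data meet the assumption of TMM that most genes do not change, and so cannot test it. The 10 genes and all lists were chosen with earlier results of these data known. Named from each list were the 2 raised and 2 lowered with the smallest adjusted p in K5/K14 tumours against skin, any called between Ivl and K5/K14 tumours, and Ccnd1, Mki67, Lmnb1, Il6 and Mdm4. Markers of other cell types and of RNA without a poly(A) tail stood in 13 lists of 76 genes, of which 72 were tested. Alternatives were DESeq2 1.42.0 and its size factors, other filters, leaving out each library, a replicate block and the 15 libraries outside the set; library totals, upper quartiles and within-library ratios were added after seeing the data. Replicates differed beyond sampling noise in all 37 pairs (chi-square per degree of freedom of at least 25.9). Promoter windows are from RefSeq (GRCm38.p6), where 8 of the 10 genes matched.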

Additional observations from a re-analysis of the deposited data

Results flagged for a closer look

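In 4 of 40 groups of 1 gene, 1 sample lay far from the rest by Dixon's criterion, which chance meets in about 1 group in 20. Cdkn1c was 7.63 CPM in Ivl tumour 3 against 2.48 to 4.06 CPM in the other Ivl tumours. Cdkn1c was also high in K14 tumour 1, at 4.42 CPM against 2.42 to 2.57 CPM in the other K14 tumours. Cdkn2b was 9.82 CPM in normal skin 4 against 5.41 to 6.02 CPM in the other skin samples. Cdkn2c was 48.4 CPM in Ivl tumour 1 against 22.3 to 31.1 CPM in the other Ivl tumours, and Ivl tumour 1 was also the tumour with the least Cdkn2a, at 1.01 CPM.

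The change against skin differed between Ivl and K5/K14 tumours, by the test of that difference, for 6 genes of the lists: Eda2r (1.44), Trp53inp1 (1.11), Hipk2 (0.91), Bhlhe40 (-0.725), Tk1 (-0.726) and Pmaip1 (-1.05 on the log2 scale, Ivl minus K5/K14). The lists held 161 genes, and 2.36% of all genes tested were called in this comparison.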

How the results depend on the processing

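Of the 10 genes, 6 were called in Ivl tumours against skin and 8 in K5/K14 tumours against skin. These counts stayed within 1.5 times under every alternative run, at 6 to 7 and 7 to 9 when 1 library was left out. Directions did not stay: with TMM 0 and 2 were lowered, and with library totals 4 in each, of 6 and 7 called. Over all 32031 genes tested, 11515 and 19916 were called with TMM and 18328 and 23907 with library totals. Between Ivl and K5/K14 tumours the count of 0 became 1, always Cdkn2d, with DESeq2 size factors, upper-quartile scaling, the DESeq2 test and filterByExpr, and ran from 0 to 1 over the leave-one-out fits; K5 against K14 tumours stayed at 0 in all. With the replicate block the counts were 6, 7, 0 and 0. Only a number is shared: same-numbered samples correlated from -0.484 to 0.391 over 25 pairs, 9 above 0.1, and 2 of 19 libraries correlated best with their own number. The block lost the call of Cdkn1b in K5/K14 tumours and no other call of the 10 genes against skin.

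Signs reversed as follows. With library totals in Ivl tumours: Cdkn2c -0.654, Cdkn2d -0.0693, Trp53 -0.13, Mdm2 -0.0928, Lmnb1 -0.298, Mki67 -0.452, Ppm1d -0.186, Tk1 -0.443 and Cul4a -0.242. With library totals in K5/K14 tumours: Trp53 -0.252, Mdm2 -0.0474, Lmnb1 -0.758, Ppm1d -0.148, Cul4a -0.249 and Eed -0.0627. Cdkn2c in Ivl tumours was -0.0759 with DESeq2 size factors, -0.0869 with upper quartiles, -0.076 with the DESeq2 test, -0.0962 with filterByExpr and -0.00494 within the 15 libraries. Lmnb1 in K5/K14 tumours was -0.0258 with DESeq2 size factors, -0.086 with upper quartiles, -0.0258 with the DESeq2 test and -0.0425 with filterByExpr. Mki67 was 0.0623 with K14 tumours alone, and Cdkn1b between tumours -0.175 within the 15 libraries. Leaving out 1 library gave ranges across 0 for Cdkn2c (-0.131 to 0.228 in Ivl and -0.221 to 0.0731 in K5/K14 tumours), Rb1 (-0.122 to 0.09) and E2f2 (-0.554 to 0.234) in Ivl tumours, Lmnb1 (-0.142 to 0.542) and Mki67 (-0.436 to 0.22) in K5/K14 tumours, and, between tumours, Cdkn1c (-0.135 to 0.32), Cdkn2c (-0.022 to 0.227) and Trp53 (-0.017 to 0.0643). Apart from the scaling itself, the cause was not tested.

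Calls over all genes moved most between tumours: 756 became 2133 with DESeq2, 46 with the replicate block, 449 with the set of 4 as a covariate, 131 within the 15 libraries and 127 to 1328 when 1 library was left out, the lowest without K5 tumour 1 and the highest without K14 tumour 1; of the 756, 566 were higher in Ivl tumours and 190 lower, against 748 and 113 with library totals. Against skin, Ivl tumours had 6535 genes raised and 4980 lowered, 2868 and 15460 with library totals (18328 in all), 5712 and 6828 with DESeq2 size factors and 5420 and 7500 with upper quartiles, and 17566 were called within the 15 libraries; K5/K14 tumours had 7440 and 12476, and 3239 and 20668. K5 against K14 tumours went from 0 to 174 with DESeq2 and 17 within the 15 libraries. Counts cover RNA only, and Cdkn2a in skin rests on 0 to 98 counts per library.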
